A study of Rattus norvegicus with 4 samples.

Results

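The integrin and focal adhesion transcripts described here are 10 genes of rat glomeruli, chosen by name: the alpha subunits Itga3, Itga1, Itga5 and Itgav, the beta subunits Itgb1, Itgb3 and Itgb5, and the cytoplasmic adaptors Ilk, Parva and Tln1. Each of the 10 names matched 1 row among the 13261 genes used, and each had reads in all 4 samples. Poly(A) RNA was sequenced from glomeruli isolated by sieving from 4 male Wistar rats of about 150 to 175 g that had received Adriamycin (ADR, doxorubicin) intravenously, an anthracycline that injures podocytes. The 4 rats form a single group under the treatment label ADR. No oral agent is named for them, the harvest day is given as 11 or 21 without saying which applied, and no uninjected group is analysed here. The results are therefore levels and differences between animals, with no direction set by the drug. The labels list separate samples without naming the animals, so the p-values below measure the spread between these 4 samples, which may be partly technical.

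Integrins are cell surface receptors made of an alpha and a beta chain, which bind basement membrane and other matrix proteins outside the cell and connect to actin inside it. In the glomerulus, the Itga3 and Itgb1 products form the laminin receptor that holds podocyte foot processes to the basement membrane, and loss of either chain from podocytes disrupts the filter. Mesangial and endothelial cells use other partners of Itgb1, among them the collagen receptor chain Itga1 and the fibronectin receptor chain Itga5, whereas Itgav pairs with several beta chains to bind vitronectin and related ligands. Talin, encoded by Tln1, binds the tails of beta chains, switches integrins to their active form and links them to actin. The pseudokinase Ilk works in a complex with parvins, such as the product of Parva, and with PINCH proteins, encoded by Lims1 and Lims2.

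To show the sequence context of the genes whose pattern between animals is described below, the 250 bases upstream of the annotated start are given for 4 members, from RefSeq with build GRCr8: Itgav and Itgb5, which had the widest spread between animals, Itga3 of the podocyte receptor, and Itga5, which ranked the animals differently. The expression table itself was made on build Rnor_6.0 and carries no coordinates. Capitals mark GGGCGG or its reverse complement CCGCCC, the GC box bound by Sp1 and related factors.
Itgav (chr3:89245132-89245381, + strand): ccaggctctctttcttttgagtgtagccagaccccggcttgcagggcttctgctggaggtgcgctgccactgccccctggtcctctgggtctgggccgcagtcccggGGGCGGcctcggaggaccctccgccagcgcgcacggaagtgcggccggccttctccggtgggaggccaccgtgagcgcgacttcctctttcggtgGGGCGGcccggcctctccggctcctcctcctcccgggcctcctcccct
Itgb5 (chr11:80449374-80449623, - strand): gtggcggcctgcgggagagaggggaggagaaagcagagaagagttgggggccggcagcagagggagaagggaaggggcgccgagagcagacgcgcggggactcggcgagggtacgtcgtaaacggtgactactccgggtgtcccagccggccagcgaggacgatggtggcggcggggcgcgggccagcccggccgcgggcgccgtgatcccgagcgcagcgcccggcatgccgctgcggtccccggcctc
Itga3 (chr10:80518902-80519151, - strand): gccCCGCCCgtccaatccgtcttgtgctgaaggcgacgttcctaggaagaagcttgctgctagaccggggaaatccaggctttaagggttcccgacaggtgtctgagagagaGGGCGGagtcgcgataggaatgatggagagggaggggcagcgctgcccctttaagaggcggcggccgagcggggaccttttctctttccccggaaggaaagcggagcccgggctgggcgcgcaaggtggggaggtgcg
Itga5 (chr7:136381306-136381555, - strand): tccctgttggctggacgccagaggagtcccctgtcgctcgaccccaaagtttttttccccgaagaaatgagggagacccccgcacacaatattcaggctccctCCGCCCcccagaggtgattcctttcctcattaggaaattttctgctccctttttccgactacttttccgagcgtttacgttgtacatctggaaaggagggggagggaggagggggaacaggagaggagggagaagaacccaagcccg
A GC box was found 2 times in the Itgav window, 2 times in that of Itga3, 1 time in that of Itga5 and 0 times in that of Itgb5. Promoters were available for 8 of the 10 members, those without being Itgb3 and Parva, and 5 of the 8 held a GC box in these 250 bases, against 32.4% of all 27457 promoters in the table. All 8 windows had more G and C than the median promoter, at 52% of bases, from 53.2% in Tln1 to 74.4% in Itgb5. The TATA box TATAAA, the AP-1 site TGANTCA and the homeodomain core TAATTA were in 0 of the 8, against 13.1%, 6.36% and 4.94% of all promoters. The ETS core CCGGAAG was in the windows of Itga3 and Ilk, and in 7.74% of all promoters. Both strands were searched and overlapping matches were counted. These matches describe letters in a window and say nothing of binding.

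The deposited values are log2 CPM (reads scaled to a common total per sample), from which whole read counts could be recovered. The 4 libraries held between 13566962 and 16207027 reads in the genes used, and the 10 members took from 0.393% of them in replicate 2 to 0.564% in replicate 1. The tissue label was checked against marker genes. All 12 podocyte markers, 9 of 10 endothelial markers and all 10 mesangial markers were in the table, as were all 10 proximal tubule markers, whose summed level ran from 3075 CPM in replicate 3 to 6226 CPM in replicate 1. The podocyte markers summed to 6518 CPM in replicate 2 and 11673 CPM in replicate 1, the endothelial markers to between 6008 CPM in replicate 1 and 7809 CPM in replicate 3, and the leukocyte markers to between 1121 CPM in replicate 1 and 1470 CPM in replicate 3. Replicate 2 also had the largest share of reads in the 13 protein-coding mitochondrial genes, 12.5% against 7.46% to 9.34% in the other samples. The libraries thus differed in composition, and these values are given where they move with a member.

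Of the podocyte laminin receptor, Itga3 (ENSRNOG00000004276) had 1254, 751, 955 and 990.1 CPM in replicates 1 to 4, a mean of 988 ± 207 CPM (SD, n = 4). Replicate 1 was highest and replicate 2 lowest, 1.67-fold apart. Its beta chain Itgb1 (ENSRNOG00000010966), shared by many integrins of all glomerular cell types, had 1806, 1258, 1462 and 1835 CPM, a mean of 1590.0 ± 279 CPM. Replicates 1 and 4 were nearly level for Itgb1, and replicate 2 was again lowest, 1.46-fold below replicate 4. Transcript lengths were not used here, so the levels of 2 genes are not compared with each other: a longer transcript gives more reads.

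Among the other alpha chains, Itga1 (ENSRNOG00000053550), the collagen receptor chain, had 99.4, 65.2, 78.0 and 83.2 CPM, a mean of 81.4 ± 14.2 CPM. It was highest in replicate 1 and lowest in replicate 2, as Itga3 was. Itgav (ENSRNOG00000004912) had 152, 64.2, 89.2 and 130.3 CPM, a mean of 109 ± 39.8 CPM and a 2.38-fold difference between replicates 1 and 2. Replicates 1 and 4 were both above replicates 2 and 3 for this gene. The fibronectin receptor chain Itga5 (ENSRNOG00000057451) ran the other way, with 93.8, 125, 125 and 104 CPM and a mean of 112 ± 15.5 CPM. Replicates 1 and 4 were both below replicates 2 and 3, and the highest sample was 1.34-fold above the lowest.

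Of the beta chains, Itgb5 (ENSRNOG00000001795), which pairs with the Itgav product in a vitronectin receptor, had 639, 305, 413 and 562 CPM, a mean of 479.8 ± 149 CPM. It ranked the 4 animals in the same order as Itgav, and replicate 1 was 2.09-fold above replicate 2. The deposited table gives Itgb5 the biotype processed_transcript, and the other 9 members protein_coding. Itgb3 (ENSRNOG00000048449), the beta chain of the platelet fibrinogen receptor and another partner of Itgav, had few reads, 44, 67, 79 and 52 in replicates 1 to 4. These reads correspond to 3.24, 4.13, 5.15 and 3.41 CPM, a mean of 3.98 ± 0.87 CPM. Replicate 3 was highest and replicate 1 lowest. Counting error alone would give Itgb3 an SD of 0.19 on the log2 scale, against 0.30 observed. The 3 measured platelet genes, Itga2b, Pf4 and Gp9, had a summed level of 16.9 to 24.1 CPM. Most of it came from Itga2b, with 11.4, 17.8, 15.2 and 12.9 CPM in replicates 1 to 4. The part of blood cells in the Itgb3 reads was not tested.

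The adaptors were the most even members. Ilk (ENSRNOG00000018993) had 221, 238, 254 and 263 CPM, a mean of 244 ± 18.6 CPM. Parva (ENSRNOG00000015713) had 229.6, 207, 218 and 216 CPM, a mean of 218 ± 9.31 CPM. Its highest sample was 1.11-fold above its lowest, and 5.84% of all genes had a smaller SD. Tln1 (ENSRNOG00000016630) had 1145, 914, 1146 and 1072 CPM, a mean of 1069 ± 109 CPM, with replicate 2 below the other 3 samples.

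**Figure D1:**
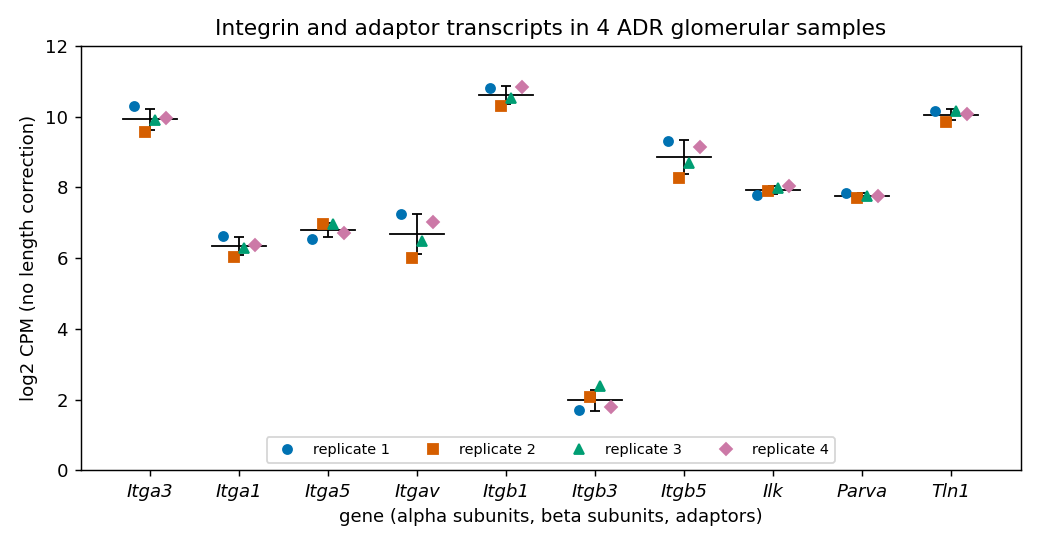
Log2 CPM (vertical axis, no length correction) of the 10 genes (horizontal axis) in the 4 ADR samples; points are samples, horizontal lines are means and bars are 1 SD (n = 4). The points of Itgav and Itgb5 lie widest apart, with SDs of 0.56 and 0.48, and those of Parva closest, with an SD of 0.06.

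Spread between animals was set against counting error and against other genes of like abundance. By a chi-square test of the recovered reads, 9 of the 10 members differed between animals by more than counting error (Benjamini-Hochberg adjusted over all genes, largest adjusted p among the 9 = 0.00105, for Parva), against a background of 69.5% of all genes. Itgb3 was the exception, with an adjusted p of 0.0554. Its difference did pass at an adjusted p of 0.0368 with mitochondrial genes out of the totals and 0.0281 without replicate 2. Parva missed the threshold under those settings, at 0.135 and 0.0619, and without replicate 1, at 0.108. Most genes pass this test, so the count is not read as a result about the members.

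Over the 10 members the median SD of log2 CPM was 0.26, beside 0.18 for all genes, whose quartiles were 0.11 and 0.29. Excess over the abundance trend was tested with limma, which called 0 of the 10 members and 0% of all genes at an adjusted p under 0.05. At an unadjusted p under 0.05, limma's count was 2 of 10, Itgav and Itgb5, against 5.47% of all genes. Both had a limma adjusted p of 0.912. A Pearson statistic of the reads at a dispersion trend held fixed called the same 2 members, against 7.53% of all genes. Its adjusted p was 1.14e-06 for Itgav and 0.0378 for Itgb5. The call of Itgav was lost without replicate 2 (adjusted p = 0.0958) and ranged from 8.26e-07 to 0.000501 under the other settings. That of Itgb5 held with median-of-ratios scaling, at 0.0341, but not with mitochondrial genes out of the totals, at 0.0896, nor without any 1 of the replicates, at 0.0543 to 0.488. For the other 8 members this statistic gave adjusted p-values of 0.45 and above in the main setting. Under the other settings they were 0.334 and above, the lowest being that of Itga1 without replicate 3.

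**Figure D2:**
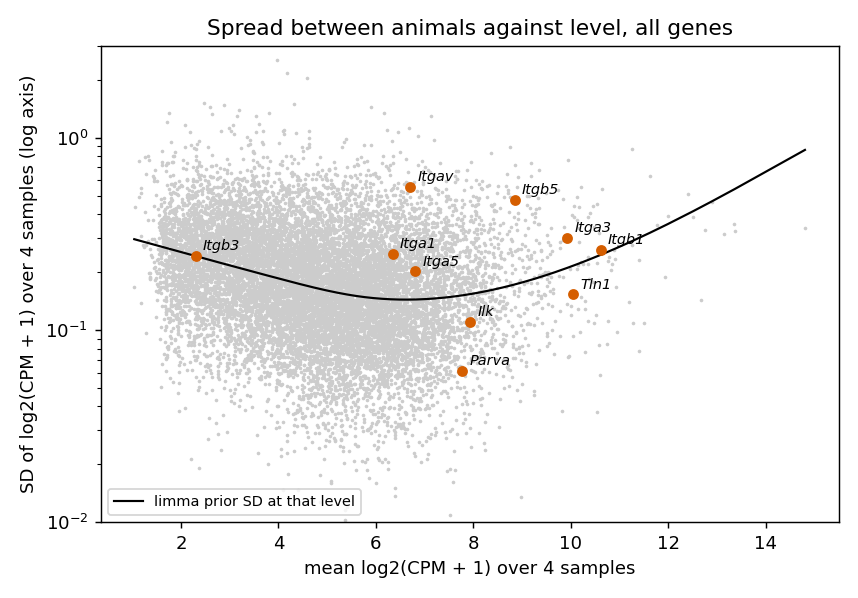
SD over the 4 samples (vertical log axis) against the mean (horizontal axis), both of log2(CPM + 1), for all 13261 genes in grey and the 10 members in orange; the line is the prior SD that limma gives at each level. Itgav and Itgb5 lie farthest above the line among the members, while Ilk, Parva and Tln1 lie below it.

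The order of the animals was compared between members. Replicates 1 and 4 both exceeded replicates 2 and 3 for Itga3, Itga1, Itgav, Itgb1 and Itgb5, 5 of the 10, against 23.6% of all genes. The opposite held for Itga5 and Itgb3, 2 of the 10, a count no larger than the background of 23.5% of all genes, and Itgb3 did not pass the test against counting error, so nothing is read from this count. Neither held for Ilk, Parva and Tln1. These 3 sets were the same with median-of-ratios scaling and with mitochondrial genes out of the totals, although the shares of all genes became 18% and 31.3% with the latter. Replicate 2 was lowest of the 4 samples for 7 members, against 31.5% of all genes, or for 6 of them, without Parva, against 22.9%, with mitochondrial genes out of the totals. Animals were not grouped by any label, so these orders are a description.

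**Figure D3:**
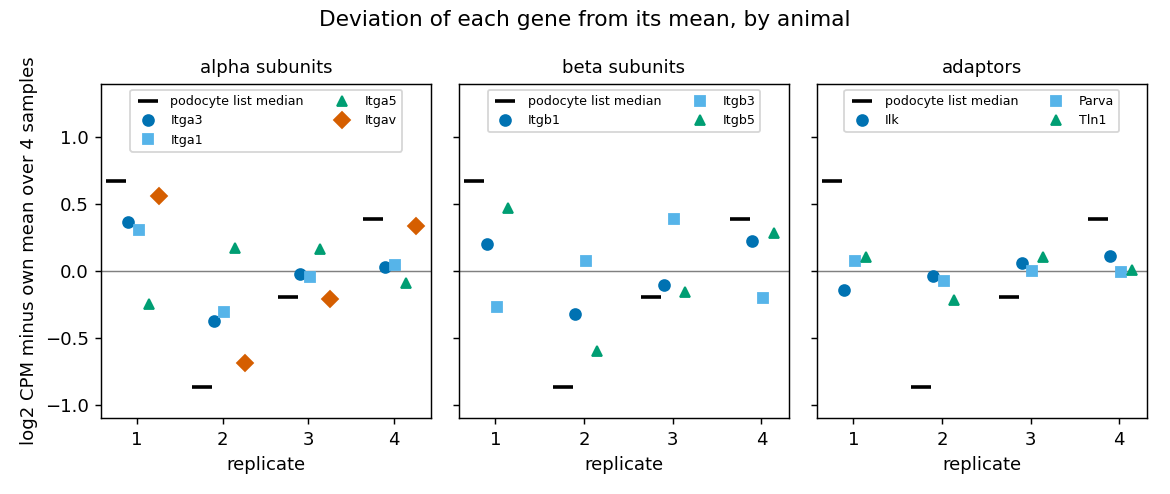
Log2 CPM minus the gene's own mean (vertical axis) for each replicate (horizontal axis), in panels for alpha chains, beta chains and adaptors; black dashes are the median of the 12 podocyte markers, treated the same way. Itgav and Itgb5 are high in replicates 1 and 4 and low in replicate 2, as the podocyte median is, while Itga5 and Itgb3 are low in replicates 1 and 4.

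The podocyte markers differed between the same animals. Replicate 1 was highest and replicate 2 lowest for 12 of the 12, against 13.4% of all genes. The median of the list was 8.78, 7.24, 7.91 and 8.49 log2 CPM in replicates 1 to 4. In bulk RNA, fewer podocytes and less RNA per podocyte cannot be told apart. The difference between Itgav and this median was -1.52, -1.23, -1.43 and -1.47 on the log2 scale, with an SD of 0.13, beside 0.56 for Itgav alone. For Itgb5 the SD was 0.48 alone and 0.21 after the podocyte median was subtracted, or 0.05 with the podocyte mean. The podocyte receptor chain Itga3 followed the list less closely. It differed from the podocyte median by 1.52, 2.32, 1.99 and 1.46, an SD of 0.41 that exceeded its own 0.30, although subtracting the podocyte mean gave a smaller SD of 0.22. Replicates 1 and 2 were 1.54 apart for the podocyte median and 0.74 apart for Itga3. With the median of the list, 2 of the 10 members, Itgav and Itgb5, had a smaller spread relative to the podocyte list than alone, against 4.55% of all genes. With the mean of the list this count was 5 members, against 8.54% of all genes. The proximal tubule median was 8.55, 8.09, 7.44 and 8.06, lowest in replicate 3 rather than replicate 2, and after its subtraction Itgav had an SD of 0.51 and Itgb5 0.48. The part of podocyte content in the differences of Itgav and Itgb5 was not tested.

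Relative to the endothelial list, Itga5 and Itgb3 were the 2 members with a smaller spread than alone, a count no larger than the background, since this held for 29% of all genes. The endothelial median was 9.18, 9.41, 9.60 and 9.26 log2 CPM. Itga5 differed from it by -2.63, -2.44, -2.64 and -2.55, an SD of 0.09 beside 0.20 alone. Itgb3 went from 0.30 alone to 0.12, which is below the 0.19 that counting error alone would give it, so no likeness is read from its SDs. That of Itga5 was not particular to the endothelial list: against the distal nephron list its SD was 0.03 with the median and 0.19 with the mean. The SD of Itga3 increased from 0.30 to 0.43 and that of Itgav from 0.56 to 0.70. Relative to the mesangial median, 6 of the 10 members had a smaller spread than alone, against 25.9% of all genes, and relative to the mesangial mean 1 of the 10 did, against 27.2%. The 6 were Itga3, Itga1, Itgav, Itgb1, Itgb5 and Tln1, each of which had a larger spread than alone with the mean, and the 1 was Ilk. For Itgb1, for example, the SD was 0.26 alone, 0.18 with the median and 0.29 with the mean, so the mesangial comparison depends on how the list is summarised. With 4 samples, these comparisons describe how profiles resemble each other and carry no test.

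**Figure D4:**
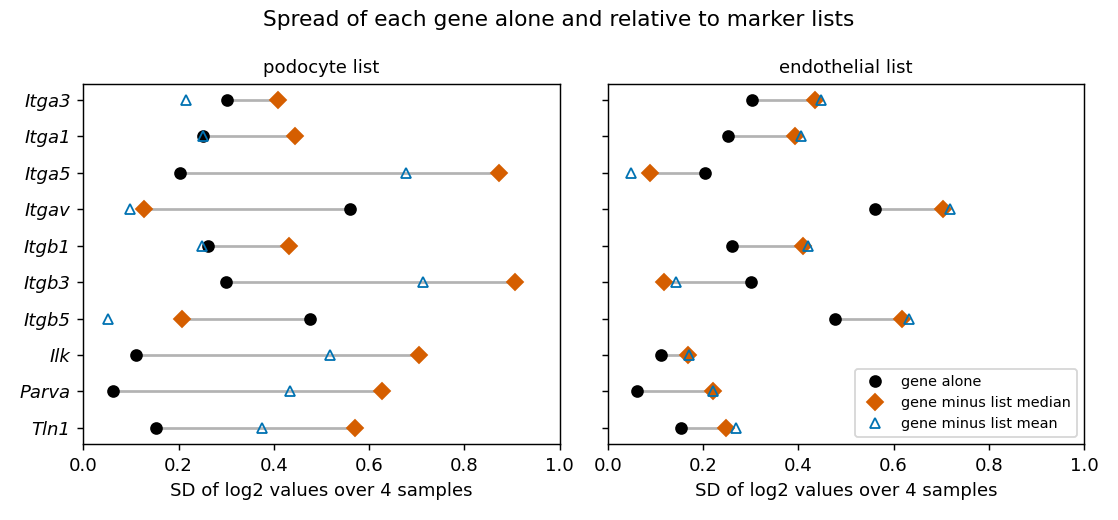
SD over the 4 samples of log2 CPM (horizontal axis) for each gene (vertical axis) alone (black) and after subtraction of the median (orange) or mean (blue) of a marker list, podocyte on the left and endothelial on the right. Itgav and Itgb5 have smaller SDs after either subtraction in the podocyte panel, and Itga5 and Itgb3 in the endothelial panel, where 29% of all genes do so with the median.

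Chains that pair in a receptor were compared within animals, where a constant for transcript length drops out of the spread; the pairs were chosen after the values were seen. Itgav minus Itgb5 was -2.07, -2.25, -2.21 and -2.11 on the log2 scale, an SD of 0.09 against 0.56 and 0.48 for the 2 genes alone. Against the podocyte mean the SD was 0.098 for Itgav and 0.05 for Itgb5, so this closeness was not particular to the pair. The share of all genes as close as the pairs given here was not taken, so nothing is read from their SDs about pairing. For Itga3 and Itgb1 the difference was -0.53, -0.74, -0.61 and -0.89, an SD of 0.16 against 0.30 and 0.26. Itga1 minus Itgb1 had an SD of 0.12. The SD was 0.45 for Itga5 minus Itgb1, and 0.80 for Itgav minus Itgb3, of which Itgb3 has few reads. Other beta chains also followed Itgav less closely than Itgb5 did. The SD was 0.31 for Itgav minus Itgb1, 0.35 for Itgav minus Itgb8 and 0.67 for Itgav minus Itgb6, which exceeded that of Itgav alone. In the Ilk complex, Ilk minus Parva was -0.05 in replicate 1 and 0.20, 0.22 and 0.28 in replicates 2 to 4, an SD of 0.15, more than that of either gene.

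The genes most like 3 of the members were found by the root mean square difference of centred log2 profiles over the 4 samples, among 11179 genes with at least 100 reads on average. Nearest to Itga3 were Stam2, at 0.0079, Synj2, at 0.017, and Lrp6, at 0.025. Itgb1 was closest to Exd2, at 0.014, Atp2c1, at 0.014, and Shisa4, at 0.017. For Itga1 they were AABR07031756.1, at 0.015, Atl3, at 0.016, and Aebp2, at 0.017. Profiles over 4 samples have many neighbours: 265, 522 and 529 genes lay within 0.1 of Itga3, Itgb1 and Itga1.

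Other integrin chains were measured for 15 of 19 listed genes. All 15 differed between animals by more than counting error, against 69.5% of all genes. Limma called 0 of them, with 5 at an unadjusted p under 0.05 against 5.47% of all genes, and the fixed-trend statistic called 6, against 7.53%. Their SD had a median of 0.34. Itga8, the mesangial receptor chain for nephronectin, had 389, 182, 296 and 439 CPM and a fixed-trend adjusted p of 0.00205. It was low in replicate 2 and high in replicates 1 and 4, the order seen for Itgb1, and Itga8 minus the podocyte median had an SD of 0.23 beside 0.57 alone, and minus the mesangial median, a list that holds Itga8, an SD of 0.42. Itgb8, a partner of Itgav that activates latent TGF-beta, had 34.9, 15.9, 13.5 and 21.2 CPM (adjusted p = 1.39e-05 by the fixed-trend statistic). It was lowest in replicate 3, the sample in which the proximal tubule markers were lowest. Itgb7, a leukocyte chain, had 4.94, 11.9, 17.5 and 14.5 CPM (fixed-trend adjusted p = 0.00277). Itgae, which pairs with Itgb7, had a mean of 5.42 ± 1.18 CPM. Of the leukocyte chains named after their values were seen, Itgb2 had 39.1, 55.2, 88.4 and 63.4 CPM and its partner Itgal 38.5, 53.4, 78.8 and 55.2 CPM. Both were lowest in replicate 1 and highest in replicate 3, as the leukocyte list median was at 5.16, 5.65, 6.19 and 5.77 log2 CPM; Itgb2 is itself in that list. Itgal minus Itgb2 had an SD of 0.09, against 0.42 and 0.49 alone. The other partners of Itgb2 followed it less closely: the SD was 0.18 for Itgam minus Itgb2, beside 0.32 for Itgam alone, and 0.33 for Itgax minus Itgb2, which exceeded the 0.30 of Itgax alone.

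Of the 30 other focal adhesion adaptors and kinases listed, all were measured and 26 differed by more than counting error, against 69.5% of all genes. Limma called 0, with 2 at an unadjusted p under 0.05 against 5.47% of all genes, and the fixed-trend statistic called 2, against 7.53%. Both counts of 2 are near the background, so nothing is read from them about the list. The median SD was 0.16. The 2 called were Tln2, the second talin, with 45.3, 19.2, 22.4 and 28.6 CPM (adjusted p = 3.99e-07), and the PINCH gene Lims1, with 77.9, 39.6, 52.8 and 63.7 CPM (adjusted p = 0.00594). Both were highest in replicate 1 and lowest in replicate 2, whereas Tln1 and Ilk, which act with them in the same structures, had SDs of 0.15 and 0.11. Ilk minus Lims1 ranged from 1.51 in replicate 1 to 2.58 in replicate 2 on the log2 scale. Lims2, the other PINCH gene, went the opposite way, lowest in replicate 1 and highest in replicate 2. It had 153, 206, 175 and 162 CPM in replicates 1 to 4. Ilk was not compared with both PINCH genes together. Actn4, an actin crosslinker of podocyte foot processes, had a mean of 1932 ± 309.7 CPM. Fblim1, a filamin-binding adaptor, had a mean of 8.38 ± 2.20 CPM. Fermt1, the epithelial kindlin, had an SD of 0.47, and the fixed-trend statistic did not call it (adjusted p = 0.231).

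Matrix ligands were measured for 17 of 19 listed genes. All 17 differed by more than counting error, against 69.5% of all genes. Limma called 0, with 5 at an unadjusted p under 0.05 against 5.47% of all genes. The fixed-trend statistic called 5, against 7.53%, namely Npnt, Spp1, Fn1, Col4a3 and Col4a5. Npnt, encoding nephronectin, the ligand of the Itga8 receptor made by podocytes, had 588, 169, 249.7 and 478 CPM (adjusted p = 6.28e-09). Its order over animals was that of Itgav and of the podocyte median. Spp1, encoding the Itgav ligand osteopontin, had 550.3, 1886, 779 and 1140.0 CPM (adjusted p = 1.36e-06), highest in replicate 2, where Itgav was lowest. Fn1, encoding fibronectin, the ligand of the Itga5 receptor, had 222, 569, 534 and 692 CPM (adjusted p = 0.00233), lowest in replicate 1 as Itga5 was, but highest in replicate 4. Col4a3, a podocyte collagen IV chain, had 1011, 317, 472 and 772 CPM. Col4a1, a collagen IV chain with a mean of 2476 ± 185 CPM, and the laminin beta chain Lamb2, a part of the Itga3 ligand, had log2 SDs of 0.11 each. Lama1, a laminin alpha chain, had a mean of 14.4 ± 2.74 CPM. The median SD of the list was 0.24.

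**Figure D5:**
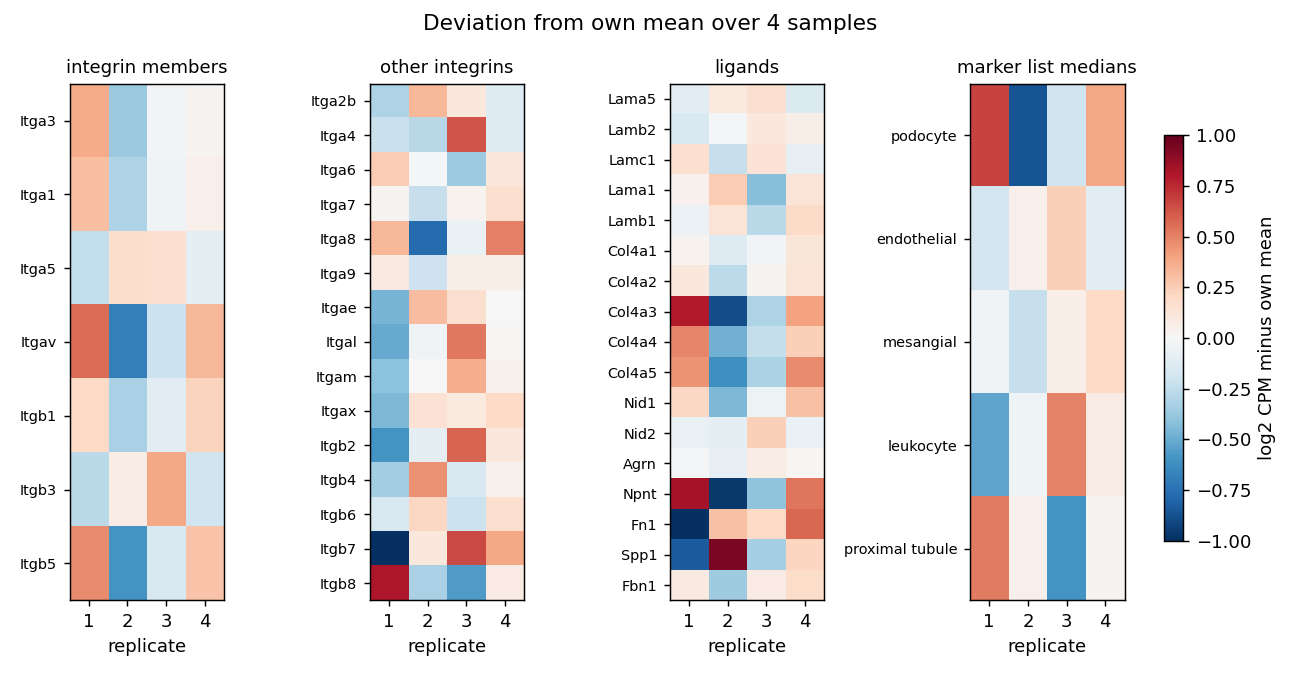
Log2 CPM minus the gene's own mean in replicates 1 to 4 (columns) for the 7 integrin members, 15 other integrin chains, 17 ligands and the medians of 5 marker lists (rows), with red above and blue below the mean; colours stop at a difference of 1. Itgav, Itgb5, Itga8, Npnt and Col4a3 are red in replicates 1 and 4 and blue in replicate 2 with the podocyte list, and Itgb2 and Itgal follow the leukocyte list.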

How the data were processed

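Glomerular poly(A) RNA of 4 samples in 1 group, ADR, was analysed. Per the submitters' processing notes, HISAT2, featureCounts, Subread and limma were used with build Rnor_6.0; versions, annotation release and use of strand in counting are not given in the sources used here. The deposited file holds log2 CPM values. In each column, 2 to the power of the value was a whole number of reads plus 0.5, times a constant of the sample (100% of values within 0.01 reads), so reads were recovered; 4 of 13265 rows with displaced cells were left out, and 116 rows that share a symbol were not used by name. No value column lacked a sample (0).

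Reads were tested against Poisson sampling (chi-square, 3 degrees of freedom). Residual variance of log2(CPM + 1) was tested with limma 3.58.1 in R 4.3.3, intercept only, with an abundance trend. As an alternative, a Pearson statistic was taken at a dispersion fixed in 40 bins of mean reads. All p-values were adjusted by Benjamini-Hochberg over 13261 genes, at 0.05. Other alternatives were a pseudocount of 0.1, a minimum of 100 mean reads, a robust prior, median-of-ratios scaling, totals without mitochondrial genes, and leaving out each replicate. Tests were checked on simulated data.

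Replicate numbers follow accession order and are names. Members and lists were chosen with earlier results of these data known. Named genes are the members, the highest and lowest in mean CPM (used only to choose them, without length correction) and the 2 most variable genes of each pathway list, and the 3 nearest profiles to Itga3, Itgb1 and Itga1; others are said to be chosen later. Col4a3, Col4a5, Fn1, Lims1, Lims2, Lamb2, Itga2b, Itgb2, Itgb6, Itgal, Itgam and Itgax were chosen after their values were seen. Planned orders and differences of levels per length were not run, because transcript lengths were not used here.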

Additional observations from a re-analysis of the deposited data

Results flagged for a closer look

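A single sample was set apart from the other 3, by the ratio of its gap to the whole range and Dixon's 95% critical value, in 8 of 106 sets of 4 values: the 10 members, the 62 other genes of the 3 pathway lists, 11 list medians and 23 differences between partner genes. Chance gives about 5%, and 5.08% of all genes passed. None of the 10 members was set apart in this way.

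Replicate 1 was the low sample for Fblim1 (ratio 0.830), at 5.16 CPM against 8.79 to 9.81 CPM, and for Itgax (0.839), at 16.4 CPM against 23.97 to 25.8 CPM. Replicate 2 was low for Itga9 (0.899), at 26.0 CPM against 31.2 to 31.8 CPM, and for Fermt2 (0.869), at 289.6 CPM against 342 to 351 CPM. Replicate 3 was high for Itga4 (0.841), at 26.3 CPM against 14.0 to 15.5 CPM, for Arhgef7 (0.892), at 147 CPM against 129 to 130.5 CPM, and for Nid2 (0.902), at 756 CPM against 598 to 612 CPM. It was low for Actn1 (0.850), at 188 CPM against 240.1 to 250.5 CPM.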

How the results depend on the processing

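The number of members beyond counting error was 9 and stayed between 8 and 9 without each replicate and with each other scaling or read minimum tried. The number with excess variance was 0 by limma, which called 0 of all 13261 genes (smallest adjusted p = 0.912), so that a count of 0 under the other settings says nothing of stability. It was 2 with the fixed-trend statistic. The number of members with a smaller spread relative to the podocyte median was 2 in all fits that left out a replicate, and 5 with the list mean. The median level of the members was 7.85 log2 CPM, ran from 7.83 to 7.87 without each replicate, and was 7.99 with mitochondrial genes out of the totals, a change that raises every gene by 0.11 to 0.19 depending on the sample, most in replicate 2. Depth limits Itgb3, with 44 to 79 reads, more than the other members, which had at least 1040. Levels were not compared between genes per length, so the planned order of levels and the planned differences between members have no value under any setting. No paired analysis was possible because the 4 samples form a single group.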
